A study of Equus caballus with 28 samples.

Results

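The miR-29 family was followed through 28 small RNA libraries of the horse embryo and uterus. Its members were taken by name from the table of known miRNAs, where 3 of the 690 entries, eca-miR-29a, eca-miR-29b and eca-miR-29c, carry a miR-29 name. A further 154 predicted miRNAs were measured beside them, which makes 844 miRNAs in all. All samples were collected 13 days after ovulation from 5 Warmblood mares, each of which served as its own control in a pregnant and a cyclic cycle. In both cycles ovulation was induced with hCG, and the mares were then either inseminated with semen of the same stallion or left unbred. The 6 groups were endometrial biopsies of 5 pregnant and 4 cyclic mares, uterine fluid (UF) taken up by a tampon from 5 pregnant and 4 cyclic mares, the tissue of 5 embryos without the capsule, and the yolk sac (YS) fluid aspirated from the same 5 embryos. Cyclic samples of mare 5 were not analysed here. Both fluids were extracted with a serum and plasma kit and both tissues with a tissue kit, so that a difference between a fluid and a tissue and a difference between kits cannot be told apart.

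A miRNA is a short RNA that guides a silencing complex to messenger RNAs with a matching site, mostly through the seed at its 5′ end, and lowers their translation and stability. The members of the miR-29 family share their seed. They are known for repressing genes of the extracellular matrix, such as collagens, elastin and fibrillin, and for acting against fibrosis in several organs, and they also repress DNA methyltransferases. The 5 horse miR-29 genes named by RefSeq comprised MIR29A beside MIR29B, MIR29B-2 beside MIR29C, and MIR29C-2, which had no other miRNA gene within 10000 bases, so that eca-miR-29b and eca-miR-29c each have more than 1 gene. Mature miR-29a and miR-29c are nearly identical, and how reads matching both were divided is not given in the sources used here. The split between these 2 members is therefore uncertain, and values of the summed family are given for each comparison.

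Libraries held between 61836 and 371630 reads in cyclic endometrium, 280065 and 590593 in pregnant endometrium, 62087 and 226308 in cyclic UF, 79173 and 152860 in pregnant UF, 28204 and 44768 in embryo, and 4352 and 14531 in YS fluid. Some libraries stood apart. In the library of embryo 1, 36.3% of reads fell on predicted miRNAs, against 5.02 to 8.67% in the other embryos, and the library of cyclic UF of mare 3 had 167 known miRNAs with a read, with 29 miR-29 reads in total. Cyclic endometrium of mare 1 had 61836 reads, against 278386 to 371630 in the rest of its group. It held 62 miR-29 reads, against 317 to 664. Markers of the labelled samples were present. The summed level of the embryonic miR-302, miR-367, miR-371 and miR-372 lay between 9175 and 40284 CPM (reads scaled to a fixed library total) in embryo and between 13935 and 94055 CPM in YS fluid, and did not exceed 55.0 CPM in any endometrium or UF library.

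Levels are given as CPM with scaling factors of the TMM method over the 28 libraries. eca-miR-29a was the most abundant member. In cyclic endometrium it reached 1162, 2270, 1750 and 1476 CPM in mares 1 to 4, a mean of 1665 ± 470 (SD, n = 4). In pregnant endometrium the values of mares 1 to 5 were 1679, 2244, 1459, 2473 and 4505 CPM, with a mean of 2472 ± 1208 (SD, n = 5). The endometrial groups overlapped, and the library of pregnant mare 5 was the highest of the series. In cyclic UF eca-miR-29a was at 1607, 2084, 522 and 1284 CPM in mares 1 to 4, with a mean of 1374 ± 656 (SD, n = 4). In pregnant UF it was at 1552, 1387, 1247, 1187 and 1738 CPM in mares 1 to 5, with a mean of 1422 ± 225 (SD, n = 5). The UF groups overlapped with each other and with both endometrial groups, and cyclic UF of mare 3 was the lowest maternal library. In embryos 1 to 5 the level was 189, 11.9, 17.3, 42.7 and 44.8 CPM, with a mean of 61.2 ± 73.2 (SD, n = 5). In YS fluid of embryos 1 to 5 it was 0, 24.6, 35.7, 139 and 27.5 CPM, with a mean of 45.3 ± 53.9 (SD, n = 5). Embryo and YS fluid overlapped, and all 18 maternal libraries lay above every library of embryo and YS fluid. How many other miRNAs were separated in this way is not given here. By mean level eca-miR-29a held rank 53 of the 308 known miRNAs with reads in pregnant endometrium, rank 61 of 269 in pregnant UF, rank 127 of 257 in embryo and rank 141 of 247 in YS fluid.

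eca-miR-29c was less abundant than eca-miR-29a and likewise higher in the maternal libraries. Its values in mares 1 to 4 were 404, 638, 383 and 384 CPM in cyclic endometrium, a mean of 452 ± 124 (SD, n = 4), and 869, 656, 275 and 856 CPM in cyclic UF, a mean of 664 ± 277 (SD, n = 4). In mares 1 to 5 they were 379, 472, 315, 560 and 1384 CPM in pregnant endometrium, a mean of 622 ± 436 (SD, n = 5), and 790, 414, 438, 729 and 641 CPM in pregnant UF, a mean of 603 ± 170 (SD, n = 5). The 4 maternal groups overlapped. Embryos 1 to 5 had 27.1, 23.8, 17.3, 64.1 and 11.2 CPM, with a mean of 28.7 ± 20.7 (SD, n = 5). In YS fluid only embryo 4 had a read, which is 139 CPM in this smallest library, and the other 4 libraries had 0. All 18 maternal libraries again lay above every library of embryo and YS fluid, whereas scaling by library totals alone left 14 of 18 above. As for eca-miR-29a, the number of other miRNAs separated in this way is not given here.

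eca-miR-29b was close to the limit of these libraries. It had between 0 and 8 reads in every maternal library. Its mean level was 15.6 ± 14.8 CPM in cyclic endometrium (SD, n = 4), 30.9 ± 10.9 in pregnant endometrium (SD, n = 5), 21.9 ± 25.4 in cyclic UF (SD, n = 4) and 21.1 ± 21.8 in pregnant UF (SD, n = 5), with overlap between all 4 groups. It had a read in 5 of 5 pregnant and 3 of 4 cyclic endometrial libraries, in 3 of 5 pregnant and 2 of 4 cyclic UF libraries, and in none of the 10 libraries of embryo and YS fluid.

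**Figure D1:**
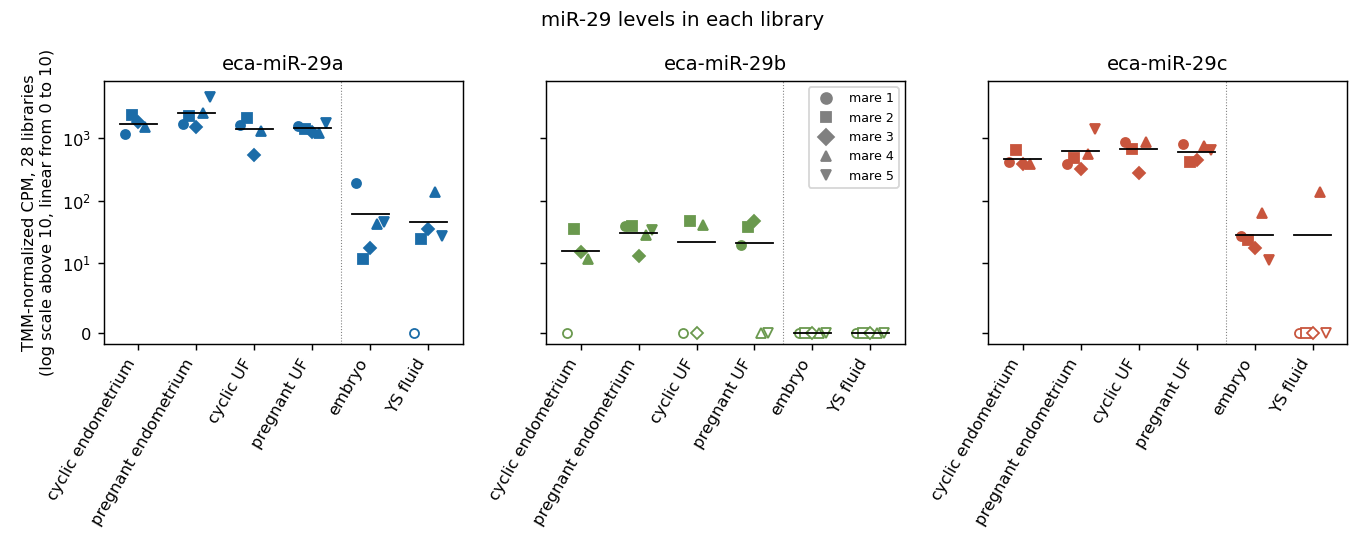
Level of each member in each library, in TMM-normalized CPM over 28 libraries, on an axis that is logarithmic above 10 and linear from 0 to 10. Symbols stand for the mare, open symbols for libraries with 0 reads, and black lines for group means. The maternal groups left of the dotted line overlap, while eca-miR-29a does not exceed 189 CPM and eca-miR-29c 139 CPM in embryo and YS fluid.

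The comparison of embryo with pregnant endometrium asks which miRNAs differ between the embryo and the uterus that surrounds it. eca-miR-29a and eca-miR-29c were both lower in the embryo, in 5 of 5 pairs of embryo and mother. The log2 fold change was −5.30 for eca-miR-29a (SE 0.69, 95% interval −6.81 to −3.79, FDR 3.89e-05) and −4.26 for eca-miR-29c (SE 0.63, 95% interval −5.63 to −2.89, FDR 9.96e-05), by edgeR's quasi-likelihood test with Benjamini-Hochberg adjustment. A call required a fold change of 2 or more with an FDR no higher than 0.05. By this rule eca-miR-29a and eca-miR-29c were called lower. eca-miR-29b was called lower too, but with 0 reads in embryo it passed the filter on low counts only through endometrium. It could not have come out higher, so its call is not counted. Of the 359 miRNAs tested, 42.6% were called lower and 71.3% in either direction. Such calls are therefore common here, and eca-miR-29a and eca-miR-29c held ranks 53 and 88 of the 359 from the lowest fold change. The summed family was lower by the same rule (log2 fold change −5.00, SE 0.58, FDR 1.40e-05), which does not depend on how reads were split between the members.

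The size of these differences depended on the scaling. With library totals in place of TMM, the median of all miRNAs moved up by 1.33 on the log2 scale, and the fold changes were −4.03 for eca-miR-29a and −3.02 for eca-miR-29c, both still called. Counted plainly, the 5 embryos held 15 reads of eca-miR-29a among 179448, or 83.6 CPM (95% exact Poisson interval 46.8 to 138), and pregnant endometrium 2474 reads, or 1344 CPM, which is 16.1-fold more. For eca-miR-29c there were 8 reads in the embryos, or 44.6 CPM (interval 19.2 to 87.8), against 333 CPM, which is 7.47-fold more. Such intervals cover counting error only. Embryo 1 supplied 7 of the 15 reads of eca-miR-29a. Without it, eca-miR-29a had a log2 fold change of −6.32 (SE 0.55, FDR 1.57e-08) and eca-miR-29c of −4.47 (SE 0.67, FDR 1.69e-05). Without embryo 4, which supplied 3 of the 8 reads of eca-miR-29c, the latter was at −4.99.

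The call of eca-miR-29b rested on few reads. The test gave an FDR of 0.00462, with 0 reads in the embryos and 31 in pregnant endometrium. At the endometrial rate of 16.8 CPM, 3.02 reads would have been expected in the embryos, and a count of 0 allows up to 16.7 CPM by the floor of 3 reads over the 5 embryos, or 20.6 CPM by the exact Poisson limit. The ratio of the embryo rate to the endometrial rate had a 95% exact interval from 0 to 1.296, which includes 1, so the counts alone do not settle a difference, and no fold is given for this member.

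YS fluid fell below pregnant endometrium in the same members. The log2 fold change of eca-miR-29a was −5.97 (SE 0.63, 95% interval −7.31 to −4.64, FDR 1.46e-06) and that of eca-miR-29c −6.13 (SE 1.01, 95% interval −8.27 to −3.99, FDR 8.82e-05). The fluid held 5 reads of eca-miR-29a among 53989, or 92.6 CPM (95% exact Poisson interval 30.1 to 216), and a single read of eca-miR-29c, whose rate was 0.0556 of the endometrial rate (95% interval 0.00141 to 0.311). Library totals gave log2 fold changes of −3.97 and −4.21, with the median of all miRNAs moved up by 2.00. Without pregnant endometrium of mare 5, eca-miR-29c was at −5.49. Without YS fluid of embryo 4 it had no read left in YS fluid, and a count of 0 there allows at most 3 reads. Both members were called lower, beside 35.2% of the 341 miRNAs tested. eca-miR-29b was called lower too, but it again passed the filter on low counts only through endometrium, and its call is not counted. For eca-miR-29b, with 0 reads, only 0.909 reads would have been expected at the endometrial rate, the ratio of the rates had an interval from 0 to 4.31, and its FDR of 0.0219 was lost under 5 of 19 alternatives, so that a difference was not detectable at this depth. The summed family had a log2 fold change of −6.01 (SE 0.68, FDR 2.42e-06).

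The conceptus also lay below the fluid around it. Between embryo and pregnant UF, where 38.7% of 310 miRNAs were called lower and 68.4% in either direction, the log2 fold change was −5.04 for eca-miR-29a (SE 0.68, FDR 5.51e-05) and −4.62 for eca-miR-29c (SE 0.58, FDR 2.91e-05). Between YS fluid and pregnant UF, which were extracted with the same kit and where 36.1% of 277 miRNAs were called lower and 59.6% in either direction, it was −5.11 for eca-miR-29a (SE 0.57, FDR 1.69e-06) and −5.80 for eca-miR-29c (SE 0.84, FDR 2.57e-05). The YS fluid values rested on 5 reads of eca-miR-29a and 1 of eca-miR-29c, against 594 and 243 in pregnant UF. Counted plainly, the rate in YS fluid was 0.0888 of that in pregnant UF for eca-miR-29a (95% interval 0.0287 to 0.208). For eca-miR-29c it was 0.0434 (95% interval 0.00109 to 0.244). The embryo values rested on 15 and 8 reads. In each of these comparisons both members tested were called. No library of one group overlapped with the other, from which it follows that the direction held in 5 of 5 pairs. The share of all miRNAs without such overlap is not given here. Library totals gave values between −4.31 and −3.19 in these comparisons, all called. The summed family was at −4.95 (SE 0.54, FDR 8.74e-06) in embryo and −5.33 (SE 0.58, FDR 1.23e-06) in YS fluid. eca-miR-29b did not pass the filter on low counts in either comparison. Without that filter, and in a single fit of 28 libraries, it was called lower in embryo but not in YS fluid, with 0 reads in both.

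Markers of other cell types also differed between these groups. The summed level of 5 stromal and smooth muscle miRNAs ranged from 20144 to 73529 CPM in pregnant endometrium, from 361 to 7390 CPM in pregnant UF, from 83.3 to 380 CPM in embryo and from 172 to 3330 CPM in YS fluid, with miR-199a-5p and miR-214 at 0 in embryo and miR-145 at 0 in YS fluid. The 5 leukocyte miRNAs ranged from 4544 to 5955 CPM in pregnant endometrium, from 2254 to 4047 CPM in pregnant UF, from 22.4 to 121 CPM in embryo and from 49.3 to 555 CPM in YS fluid, with miR-142-3p and miR-150 at 0 in both. In YS fluid miR-142-5p and miR-223 were also at 0, so that its range comes from 1 miRNA. The 6 epithelial miRNAs differed less, with 90969 to 116336 CPM in pregnant endometrium, 59623 to 82338 CPM in embryo and 17343 to 51340 CPM in YS fluid. The 2 endothelial miRNAs had 3130 to 7771 CPM in pregnant endometrium. Their ranges overlapped between pregnant UF (9.76 to 422 CPM), embryo (71.4 to 214 CPM) and YS fluid (55.0 to 278 CPM). The 4 blood miRNAs had 4314 to 18771 CPM in pregnant endometrium and 597 to 4336 CPM in pregnant UF. In embryo they had 59.5 to 150 CPM and in YS fluid 53.5 to 833 CPM, with miR-144 at 0 in both and miR-486-3p also at 0 in YS fluid. The part of cell composition in the miR-29 differences was not tested, and in such bulk samples fewer cells of a type and less RNA per cell cannot be told apart.

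**Figure D2:**
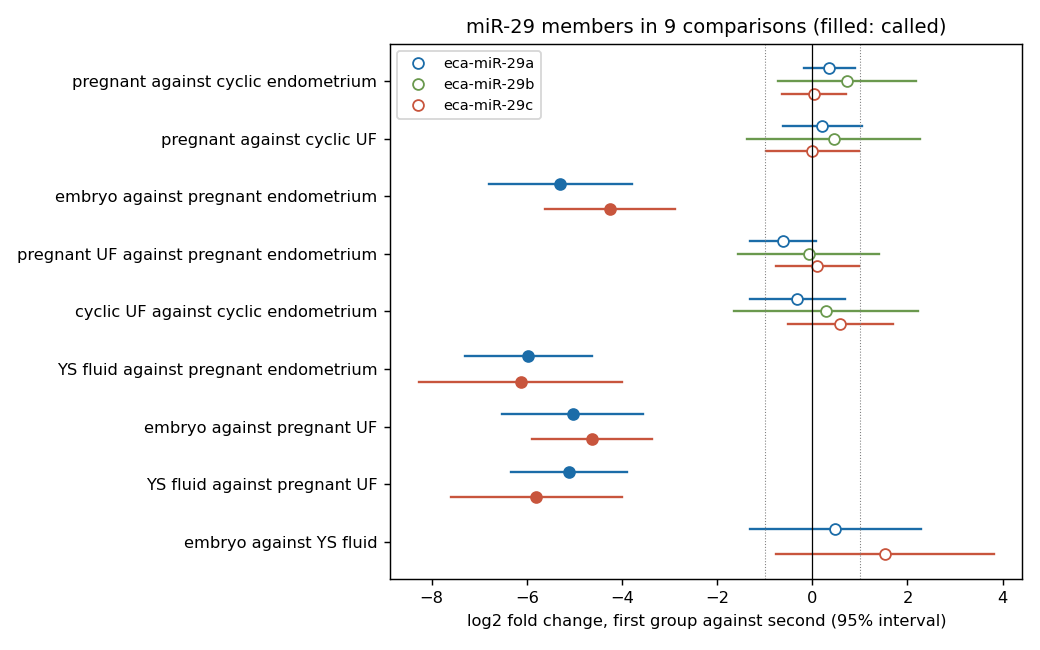
Log2 fold change of each member in the 9 comparisons, first group against second, with 95% intervals from the fit. Filled points passed the call rule, and dotted lines mark a fold change of 2. eca-miR-29b is left out where embryo or YS fluid had 0 reads. The 4 comparisons of embryo or YS fluid with pregnant endometrium or UF lie between −6.13 and −4.26, and the intervals of all other comparisons cross 0.

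Embryo and YS fluid were compared to see whether the fluid inside the embryo differs from its tissue. The log2 fold change of embryo against YS fluid was 0.48 for eca-miR-29a (SE 0.83, 95% interval −1.32 to 2.28, FDR 0.659) and 1.53 for eca-miR-29c (SE 1.05, 95% interval −0.75 to 3.81, FDR 0.260). None of the members tested was called, against 35.1% of 259 miRNAs (22% higher in embryo), and none had an unadjusted p under 0.05 by edgeR's quasi-likelihood or likelihood ratio test or by DESeq2. With 15 and 5 reads of eca-miR-29a, and 8 and 1 of eca-miR-29c, differences inside these wide intervals were not detectable. The summed family was at 0.79 (SE 0.77, FDR 0.440). Without embryo 1 the value of eca-miR-29a was −0.35 (FDR 0.768).

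The comparison of pregnant with cyclic mares asks which miRNAs differ with pregnancy. Pregnant cycles were also inseminated and cyclic ones were not, so the embryo and insemination cannot be told apart. No member was called in endometrium or UF, where 3.37% of 386 and 4.92% of 305 miRNAs were called (in UF 1.31% higher and 3.61% lower in pregnancy), and none had an unadjusted p under 0.05 by any of the same 3 tests. In endometrium, scaled within these 9 libraries, eca-miR-29a had a mean of 1596 ± 891 CPM in 5 pregnant and 949 ± 266 CPM in 4 cyclic libraries (SD), and was higher in 3 of the 4 mares with both. With the mare as a block its log2 fold change was 0.36 (SE 0.27, 95% interval −0.18 to 0.90, FDR 0.757). Mare 5, with 3147 CPM, lifts the pregnant mean but does not enter this contrast, since it has no cyclic library. For eca-miR-29c the log2 fold change was 0.04 (SE 0.34, 95% interval −0.63 to 0.72, FDR 0.977) and for eca-miR-29b 0.73 (SE 0.74, 95% interval −0.73 to 2.19, FDR 0.778). As libraries were left out in turn, eca-miR-29a ranged from 0.13 to 0.55, the latter without cyclic endometrium of mare 3 (SE 0.34), and eca-miR-29b from 0.41 to 0.99. The summed family was at 0.30 (SE 0.27, FDR 0.782).

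In UF the log2 fold changes were 0.21 for eca-miR-29a (SE 0.42, 95% interval −0.62 to 1.04, FDR 0.956), −0.00 for eca-miR-29c (SE 0.50, 95% interval −0.98 to 0.98, FDR 0.996) and 0.45 for eca-miR-29b (SE 0.92, 95% interval −1.37 to 2.26, FDR 0.956). eca-miR-29a was higher in pregnancy in 3 of 4 mares and eca-miR-29c in 2 of 4, and the summed family was at 0.14 (SE 0.40, FDR 0.981). An interaction term, the log2 fold change with pregnancy in UF minus that in endometrium, was −0.28 for eca-miR-29a (SE 0.46, FDR 0.988), −0.36 for eca-miR-29b (SE 1.15, FDR 1) and −0.18 for eca-miR-29c (SE 0.51, FDR 1).

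UF was also compared with the endometrium of mares in the same state. No member was called in pregnant mares, where 33.7% of 359 miRNAs were called and 20.1% called lower in UF, nor in cyclic mares, where 30.8% of 328 were, and again none had an unadjusted p under 0.05 by any of the 3 tests. In pregnant mares the log2 fold change of UF against endometrium was −0.61 for eca-miR-29a (SE 0.33, 95% interval −1.31 to 0.08, FDR 0.153), 0.11 for eca-miR-29c (SE 0.41, 95% interval −0.77 to 0.98, FDR 0.875) and −0.08 for eca-miR-29b (SE 0.69, FDR 0.953). In cyclic mares it was −0.32 for eca-miR-29a (SE 0.47, FDR 0.657), 0.59 for eca-miR-29c (SE 0.52, FDR 0.427) and 0.28 for eca-miR-29b (SE 0.91, FDR 0.868). Single libraries moved these values. In pregnant mares eca-miR-29a was at −0.24 (FDR 0.531) without endometrium of mare 5 and at −0.89 (FDR 0.0439) without endometrium of mare 3, the latter under the fold threshold, and eca-miR-29c was at 0.69 (FDR 0.106) without endometrium of mare 5. In cyclic mares, without UF of mare 3, eca-miR-29c was at 1.25 (SE 0.44, FDR 0.0391) and was called, and eca-miR-29a was at 0.38. Without endometrium of mare 2 they were at 1.31 (SE 0.59, FDR 0.101) and 0.38, and without endometrium or UF of mare 4 eca-miR-29a was at 0.0806 and 0.17. The summed family, which is free of the split between members, had a log2 fold change of −0.43 (SE 0.33, FDR 0.342) in pregnant and 0.18 (SE 0.44, FDR 0.791) in cyclic mares. The stromal and smooth muscle markers ranged from 1044 to 3897 CPM in cyclic UF and from 24936 to 42912 CPM in cyclic endometrium, and their part in these values was not tested.

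The make-up of the family was also compared between fluid and tissue. Of the miR-29 reads of a library, eca-miR-29c took 18.1, 17.1, 17.6, 18.3 and 23.4% in pregnant endometrium of mares 1 to 5, and 33.5, 22.5, 25.3, 38.0 and 27.0% in their UF. In cyclic mares 1 to 4 it took 25.8, 21.7, 17.8 and 20.5% in endometrium and 35.1, 23.5, 34.5 and 39.3% in UF. The share was higher in UF than in the endometrium of the same mare in 5 of 5 pregnant and 4 of 4 cyclic mares. The mean share was 18.9 ± 2.54% in endometrium and 29.3 ± 6.36% in UF of pregnant mares (SD, n = 5 each), and 21.5 ± 3.31% and 33.1 ± 6.72% in cyclic mares (SD, n = 4 each). Exact permutation tests, two-sided and without pairing, gave p = 0.0159 in pregnant and p = 0.0571 in cyclic mares. An exact sign-flip test over the pairs gave 0.0625 and 0.125, the smallest values that 5 and 4 pairs allow.

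The share of eca-miR-29a mirrored this, since eca-miR-29b held 0.635 to 1.13% of the reads on average. It was 80.0 ± 2.28% in pregnant endometrium and 69.6 ± 5.58% in pregnant UF (SD, n = 5 each), without overlap (exact permutation p = 0.00794, the smallest possible with 5 against 5). In cyclic mares it was 77.9 ± 3.05% and 66.0 ± 6.55% (SD, n = 4 each, exact permutation p = 0.0571). Of the 27 share tests made, 3 members in 9 comparisons, 4 had an unadjusted p under 0.05. Among these 4, eca-miR-29a and eca-miR-29c in pregnant UF against endometrium mirror each other. The rest are eca-miR-29b in embryo and YS fluid against pregnant endometrium, with 0 reads of it among 23 and 6 family reads. None of the 27 passed adjustment, with Benjamini-Hochberg values of 0.107 for both members in pregnant and 0.257 in cyclic mares. Even the smallest possible p of eca-miR-29a was adjusted to 0.107, so the lack of a pass is not read as equal shares. The shares in UF and endometrium do not depend on scaling between libraries, but they do depend on the uncertain division of reads between eca-miR-29a and eca-miR-29c. Shares in embryo and YS fluid rested on 23 and 6 family reads and are not read further.

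**Figure D3:**
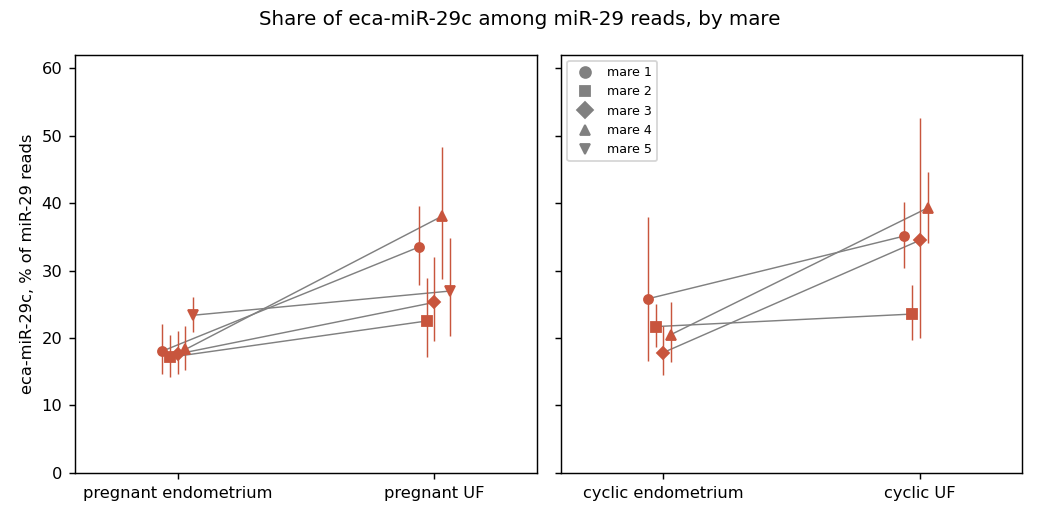
Percentage of eca-miR-29c among the miR-29 reads of each library, with endometrium and UF of the same mare joined by a line, pregnant mares left and cyclic mares right. Bars are 95% Wilson intervals of the share. The line rises in 5 of 5 pregnant and 4 of 4 cyclic mares, by little in cyclic mare 2, from 21.7 to 23.5%.

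The known miRNAs whose levels were most like those of the family were the same for eca-miR-29a and eca-miR-29c. Over the 28 libraries and 182 candidates of at least 100 CPM in the mean of a group, Pearson's r of log2 levels was highest with miR-31 (0.96 with both), miR-24 (0.95 with both) and miR-27b (0.94 with eca-miR-29a and 0.96 with eca-miR-29c). The 2 members correlated with each other at 0.95. These libraries fall into maternal and conceptus samples, and within the 18 maternal libraries the values for eca-miR-29a were lower, at 0.50, 0.10 and 0.57, as were those for eca-miR-29c, at 0.31, −0.05 and 0.26, with 0.60 between the 2 members. miR-31 had a mean level of 19331 ± 6866 CPM in pregnant endometrium, 14501 ± 2318 CPM in pregnant UF, 519 ± 145 CPM in embryo and 494 ± 588 CPM in YS fluid (SD, n = 5 each).

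Other miRNAs known to act on collagen, connective tissue growth factor or TGF-beta signalling genes in fibrosis were counted beside the family, 20 known miRNAs in all. Between pregnant and cyclic mares 0 of the 18 tested were called in endometrium or UF, beside 3.37% and 4.92% of all miRNAs tested. At shares this low, 0 of 18 is not read as a result about the list. The quasi-likelihood test gave an unadjusted p under 0.05 for 1 each, the likelihood ratio test for 1 and 0, and DESeq2 for 2 and 1. The highest in endometrium was miR-21, known for promoting fibrosis, with a log2 fold change of 0.65 (SE 0.14, FDR 8.09e-05), under the fold threshold, and the lowest was miR-30c with −0.40 (FDR 0.375). The paper lists miR-30c as downregulated in pregnant endometrium at the same FDR and fold limits. That call was not obtained here, and the reason was not tested. In UF miR-21 was again the highest (0.58, FDR 0.355).

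Between embryo and pregnant endometrium 2 of 18 were called higher and 11 lower, beside 28.7% and 42.6% of all miRNAs tested. They had a median of −1.90 on the log2 scale against −1.03 over all miRNAs tested, or −0.29 with miRNAs lacking reads in a group set to their bound. The lowest with reads in both groups was miR-143, a smooth muscle miRNA (−6.96, FDR 2.30e-06), and the highest miR-192 (2.56, FDR 0.00126). Between YS fluid and pregnant endometrium 1 of 18 was called higher and 14 lower, beside 17.9% and 35.2% of all. Their median was −2.80, or −2.51 with bounds, against −0.84 and −0.16 over all. The lowest with reads in both groups was miR-199a-3p (−6.14, FDR 6.34e-07) and the highest miR-192 (1.76, FDR 0.0134). Against pregnant UF, 2 of 15 were called higher and 9 lower in embryo, beside 29.7% and 38.7% of all, and 0 and 10 of 15 in YS fluid, beside 23.5% and 36.1%, with let-7d lowest in both (−7.04, FDR 8.68e-08, and −5.06, FDR 1.02e-06). Between embryo and YS fluid 6 of 15 were called higher, led by miR-30e (3.38, FDR 0.000179), and none lower, beside 22% and 13.1% of all. In UF 4 of 18 were called lower than in endometrium in pregnant and 5 of 18 in cyclic mares, beside 20.1% and 18.9% of all miRNAs tested, with miR-199a-5p, a stromal miRNA, lowest in both (−4.94 and −4.84). None was called higher, beside 13.6% and 11.9% of all.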

How the data were processed

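The authors extracted RNA, made libraries with the TailorMix kit from 100 ng RNA and 18 PCR cycles, and sequenced them on a MiSeq. They trimmed adapters with cutadapt 1.11 (named in the submitters' processing notes), removed short, low-quality and ambiguous reads, counted reads on miRBase miRNAs and predicted others on EquCab2.0 with miRPro, and deposited raw read counts without normalization. Here known and predicted miRNAs were analysed together. Groups came from the labels, and sample numbers were read as mares, which the paper describes as paired. For the mare as block, the deviations of same-mare samples from their group means correlated at −0.10 to 0.38 in endometrium (mean 0.20) and 0.10 to 0.53 in UF (mean 0.38).

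For each of 9 comparisons a model was fitted to the libraries compared (edgeR 4.0.16, R 4.3.3), with TMM scaling, a minimum of 1 CPM in a number of libraries equal to the size of the smaller group, the quasi-likelihood test and Benjamini-Hochberg adjustment over all miRNAs tested (FDR). The block was used for pregnant against cyclic mares. Shares were tested by exact permutation in Python 3.11.15 with scipy 1.17.1, with counting intervals at 95%. The fits were first tested on simulated data. Alternatives included the likelihood ratio test, DESeq2 1.42.0, other scalings and filters, thinning, known miRNAs only, the block left out or added, and each library left out.

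The members and the lists were chosen with earlier results of these data known. Named besides the members are the 3 miRNAs with the most similar levels, and the highest or lowest of the matrix-linked list, though not both in every comparison. The lowest with reads in both groups was named where the lowest had none in 1 group, a choice made after the values were seen. A search for other miRNAs with the same seed was not run, since mature sequences were not used here. The deposited precursor counts were not used.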

Additional observations from a re-analysis of the deposited data

Results flagged for a closer look

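A library was marked where its gap to the nearest other library of its group exceeded 0.829 of the range of 4 libraries or 0.710 of the range of 5 (Dixon's critical values). Of 25 groups of values examined, 5 were marked, where chance marks about 1 in 20 of independent groups. These groups are not independent, since the shares of eca-miR-29a and eca-miR-29c nearly complement each other. Pregnant endometrium of mare 5 accounted for 3 of the 5: its eca-miR-29c level of 1384 CPM, its eca-miR-29c share of 23.4% and its eca-miR-29a share of 76.1% of miR-29 reads. The others were the eca-miR-29a level of 189 CPM in embryo 1 and the eca-miR-29c level of 638 CPM in cyclic endometrium of mare 2. Levels in YS fluid were not among those marked, although embryo 4 stands apart there by the same rule. It had 139 CPM of eca-miR-29a, against at most 35.7 CPM in the other YS fluid libraries, and 139 CPM of eca-miR-29c, against 0. Each of these is 1 read in a library of 4352 reads.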

How the results depend on the processing

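eca-miR-29a and eca-miR-29c stayed called lower in embryo and YS fluid than in pregnant endometrium and UF under all 21 alternatives, with log2 fold changes from −6.53 to −2.58 for eca-miR-29a and from −9.48 to −2.57 for eca-miR-29c, the lowest of which left YS fluid without a read. The number of members called ranged from 2 to 3 in embryo against pregnant endometrium, YS fluid against pregnant endometrium and embryo against pregnant UF, by eca-miR-29b alone. The mare as block, added or left out, changed no member's call. Left out, it gave 0.74 for eca-miR-29a and 0.64 for eca-miR-29c between pregnant and cyclic endometrium, where mare 5 then counts, and no miRNA at all was called in endometrium or UF. Between cyclic UF and endometrium the number of members called ranged from 0 to 1 as libraries were left out, the 1 arising without cyclic UF of mare 3. For eca-miR-29b in YS fluid against pregnant endometrium the FDR was 0.410 with DESeq2, 0.0738 with RLE factors, 0.244 with library totals, 0.0614 with known miRNAs only and 0.0718 in a single fit of 28 libraries, and the cause was not tested.

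Values near 0 changed sign in places. eca-miR-29c in pregnant against cyclic endometrium was at −0.0231 with DESeq2, −0.0228 with RLE factors, −0.0165 with filterByExpr, −0.0170 with known miRNAs only, −0.19 with library totals and −0.0101 without a filter, and in UF at 0.0231 with DESeq2 and 0.0313 with RLE factors. In pregnant UF against endometrium eca-miR-29b was at 0.00035 with library totals and 0.16 with known miRNAs only, and eca-miR-29c at −0.0416 without a filter. eca-miR-29a was at 0.0128 in cyclic UF against endometrium with filterByExpr and 0.0140 with thinned libraries, and at −0.0833 with library totals and −0.31 with thinned libraries in embryo against YS fluid. The cause was not tested for any of these.

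As libraries were left out, eca-miR-29a ranged from −0.28 to 0.38 in cyclic UF against endometrium, from −0.35 to 0.77 in embryo against YS fluid and from −0.12 to 0.47 in pregnant against cyclic UF. eca-miR-29b ranged from −0.49 to 0.18 in pregnant UF against endometrium and from −0.0692 to 1.35 in pregnant against cyclic UF, and eca-miR-29c from −0.21 to 0.69, from −0.21 to 0.22 and, in pregnant against cyclic endometrium, from −0.23 to 0.15. The interaction ranged from −0.56 to 0.24 for eca-miR-29a, from −0.78 to 0.86 for eca-miR-29b and from −0.34 to 0.26 for eca-miR-29c. The share of eca-miR-29b differed by −0.0686 to 0.54 percentage points in cyclic UF against endometrium, −0.38 to 0.30 in pregnant UF against endometrium and −0.15 to 0.57 in pregnant against cyclic UF.

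As a log2 ratio to the other members, with 0.5 read added, the share differences turned to −0.0380 for eca-miR-29b in pregnant UF against endometrium, to −0.63 for eca-miR-29a, 4.54 for eca-miR-29b and 0.73 for eca-miR-29c in YS fluid against endometrium, to 3.27 for eca-miR-29b in embryo against endometrium, and, against pregnant UF, to 3.30 for eca-miR-29b in embryo and 4.58 in YS fluid. In embryo and YS fluid these follow from 0.5 read added to few family reads. The summed family gave no count of members. Depth limits eca-miR-29b in every group and the whole family in embryo and YS fluid, where differences between the latter were not detectable.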
